A study of Mus musculus with 53 samples.

Results

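The genes described here are 10 genes of the liver X receptor (LXR) pathway and of cholesterol efflux: Abca1, Abcg1, Apoe, Mylip, Nr1h3, Nr1h2, Srebf1, Scd1, Lpcat3 and Ch25h. They were taken by gene symbol from tables of 23847 loci, with no threshold on their values, although the list itself was drawn up with results of these data known, and each symbol stood for 1 locus. Bone marrow-derived macrophages (BMDMs) were given IL-4 and sequenced at several times. IL-4 is the cytokine behind alternative macrophage polarization and signals through STAT6, a transcription factor. The aim was to find the genes that IL-4 activates or represses, and how far this needs STAT6. The values are FPKM (fragments scaled to transcript length and to the mapped fragments of the library), which can be set side by side between genes. A locus was tested if it reached 1 FPKM in at least 1 sample, and 9 of the 10 genes did so, among 11146 loci in all. Scd1 did not, and its values are given without a test.

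There were 53 samples in 18 groups, 35 from WT mice and 18 from Stat6-/- mice, a knockout of Stat6 in every cell of the body on the C57BL/6 background that the WT mice share. All mice were 8 to 12 weeks old, and in every group the bone marrow cells were differentiated for 6 days in L929 supernatant, a source of the macrophage growth factor M-CSF. For each genotype there was a control at 0 h, controls at 1, 3, 6 and 24 h, and cells given 20 ng/ml IL-4 for 1, 3, 6 or 24 h. Each WT group held 4 samples but for the 24 h IL-4 group, made up of replicates 2, 3 and 4 (replicate 1 is not analysed here), and each Stat6-/- group held 2. The study describes the WT replicates as individual animals, which the labels do not state, and neither says whether a replicate number marks the same animal in every group. For the Stat6-/- samples no source used here names the unit, so the spread between them may be technical. Each p-value of the main fit rests on a spread pooled over all 18 groups of both genotypes. In bulk RNA, fewer cells of a type and less RNA per cell cannot be told apart.

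LXRα (encoded by Nr1h3) and LXRβ (Nr1h2) are nuclear receptors that bind DNA together with a retinoid X receptor and are switched on by oxysterols, the oxidized forms of cholesterol. In macrophages they raise the transporters ABCA1 and ABCG1, which load cholesterol onto lipoprotein particles, and the apolipoprotein APOE, which accepts it. They also raise MYLIP (IDOL), a ubiquitin ligase that limits the uptake of lipoproteins, and genes of fatty acid and phospholipid synthesis, among them Srebf1, Scd1 and Lpcat3. CH25H makes 25-hydroxycholesterol, an oxysterol that can act as an LXR ligand.

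Stat6 lay between 14.3 and 24.0 FPKM in the 18 Stat6-/- samples and between 58.7 and 90.6 FPKM in the 35 WT samples, so every sample matched its genotype label. Retnla, a gene long known to be raised by IL-4, reached 3441 to 5041 FPKM in WT with 24 h of IL-4, and Arg1 40.2 to 99.3 FPKM. FPKM sums per sample were 385889 to 464915 and depth relative to the median sample was 0.706 to 1.55, while the absolute depth is unknown. All 6 macrophage markers tested (Csf1r, Cd68, Adgre1 under its older symbol Emr1, Itgam, Mrc1 and Fcgr1) were present, with a summed level of 2806 to 4644 FPKM, and the markers of B cells, T cells, dendritic cells, fibroblasts and erythroid cells stayed below 1 FPKM in every sample. Neutrophil markers (5 measured: Elane, Mpo, Camp, Ltf and S100a8) summed to 98.4 to 294 FPKM in WT and 281 to 553 FPKM in Stat6-/-. The mast cell markers Tpsb2 and Mcpt4 were at 0 in every sample, while Cpa3 reached 1 FPKM in at least 1. The 2 Stat6-/- samples of a group stood apart from each other in several of the 10 genes, and the WT replicate 1 at 0 h stood apart from the other 3 WT samples in Nr1h3 (27.1 against 14.8 to 17.1 FPKM) and Lpcat3 (17.7 against 23.5 to 28.2 FPKM).

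To show where an LXR could bind near these genes, promoter windows of 300 bases (250 before to 50 after a gene start) were read from RefSeq on the build GRCm38.p6. There were 13 windows for 8 of the 10 genes, and Abcg1 and Scd1 were not among them. Each was searched on both strands for the LXR element, a direct repeat of AGGTCA with 4 free bases between, allowing mismatches in its 12 fixed bases. The nearest matches among the 13 windows, with 3 mismatches each, lay in the Abca1 promoter and in the window at the internal start of Srebf1, from which the SREBP-1c form is known to be transcribed. These are printed because the 2 genes behaved differently under IL-4, with the repeat in capitals. Both run 5′ to 3′ along the gene, which is on the minus strand.
Abca1 promoter, chr4:53159846-53160145: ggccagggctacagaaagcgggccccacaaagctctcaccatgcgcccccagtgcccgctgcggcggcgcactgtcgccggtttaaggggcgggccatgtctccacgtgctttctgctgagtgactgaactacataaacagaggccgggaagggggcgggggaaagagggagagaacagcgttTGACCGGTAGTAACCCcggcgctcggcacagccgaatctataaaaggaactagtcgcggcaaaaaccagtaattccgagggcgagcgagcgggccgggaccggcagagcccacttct
Srebf1 internal promoter, chr11:60210422-60210721: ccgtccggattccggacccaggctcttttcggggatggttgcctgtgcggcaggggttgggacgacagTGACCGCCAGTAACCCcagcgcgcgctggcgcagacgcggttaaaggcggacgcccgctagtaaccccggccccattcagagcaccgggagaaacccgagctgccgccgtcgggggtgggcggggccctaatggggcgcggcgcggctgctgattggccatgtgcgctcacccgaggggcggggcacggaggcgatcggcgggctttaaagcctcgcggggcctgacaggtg
The repeat reads in the antisense direction in both, and lies 67 to 52 bases before the start in Abca1 and 182 to 167 bases before it in Srebf1. These starts are those of RefSeq. A second gene annotation, GENCODE, also had a transcript start there for Abca1, but not for this Srebf1 window. A match at least this close was present in 21.9% of all 32851 promoter windows. The number of mismatches alone therefore does not set these windows apart, and it does not show whether an LXR acts there. The other 11 windows held no match with fewer than 4 mismatches. The STAT6 motif, TTC and GAA with 4 free bases between, was present in 6.95% of all windows and in 1 of the 13, the Srebf1 window at chr11:60220578-60220877. A match is a description of these letters only.

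The first question was how IL-4 moved each gene in WT cells. Ch25h rose at once and then declined, Abca1 fell from 3 h on, Nr1h3 dipped between 1 h and 6 h, and Apoe fell most at 24 h. Mylip had a lower mean with IL-4 at each time, with an adjusted p under 0.05 by limma at 1 h and 24 h only. Abcg1, the transporter that works beside Abca1, rose. A gene is said here to be called when its limma adjusted p was under 0.05 and the difference at least 2-fold, and to pass the test when the adjusted p alone was under 0.05. Differences are on the log2(FPKM + 1) scale, which understates the change of low genes.

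**Figure D1:**
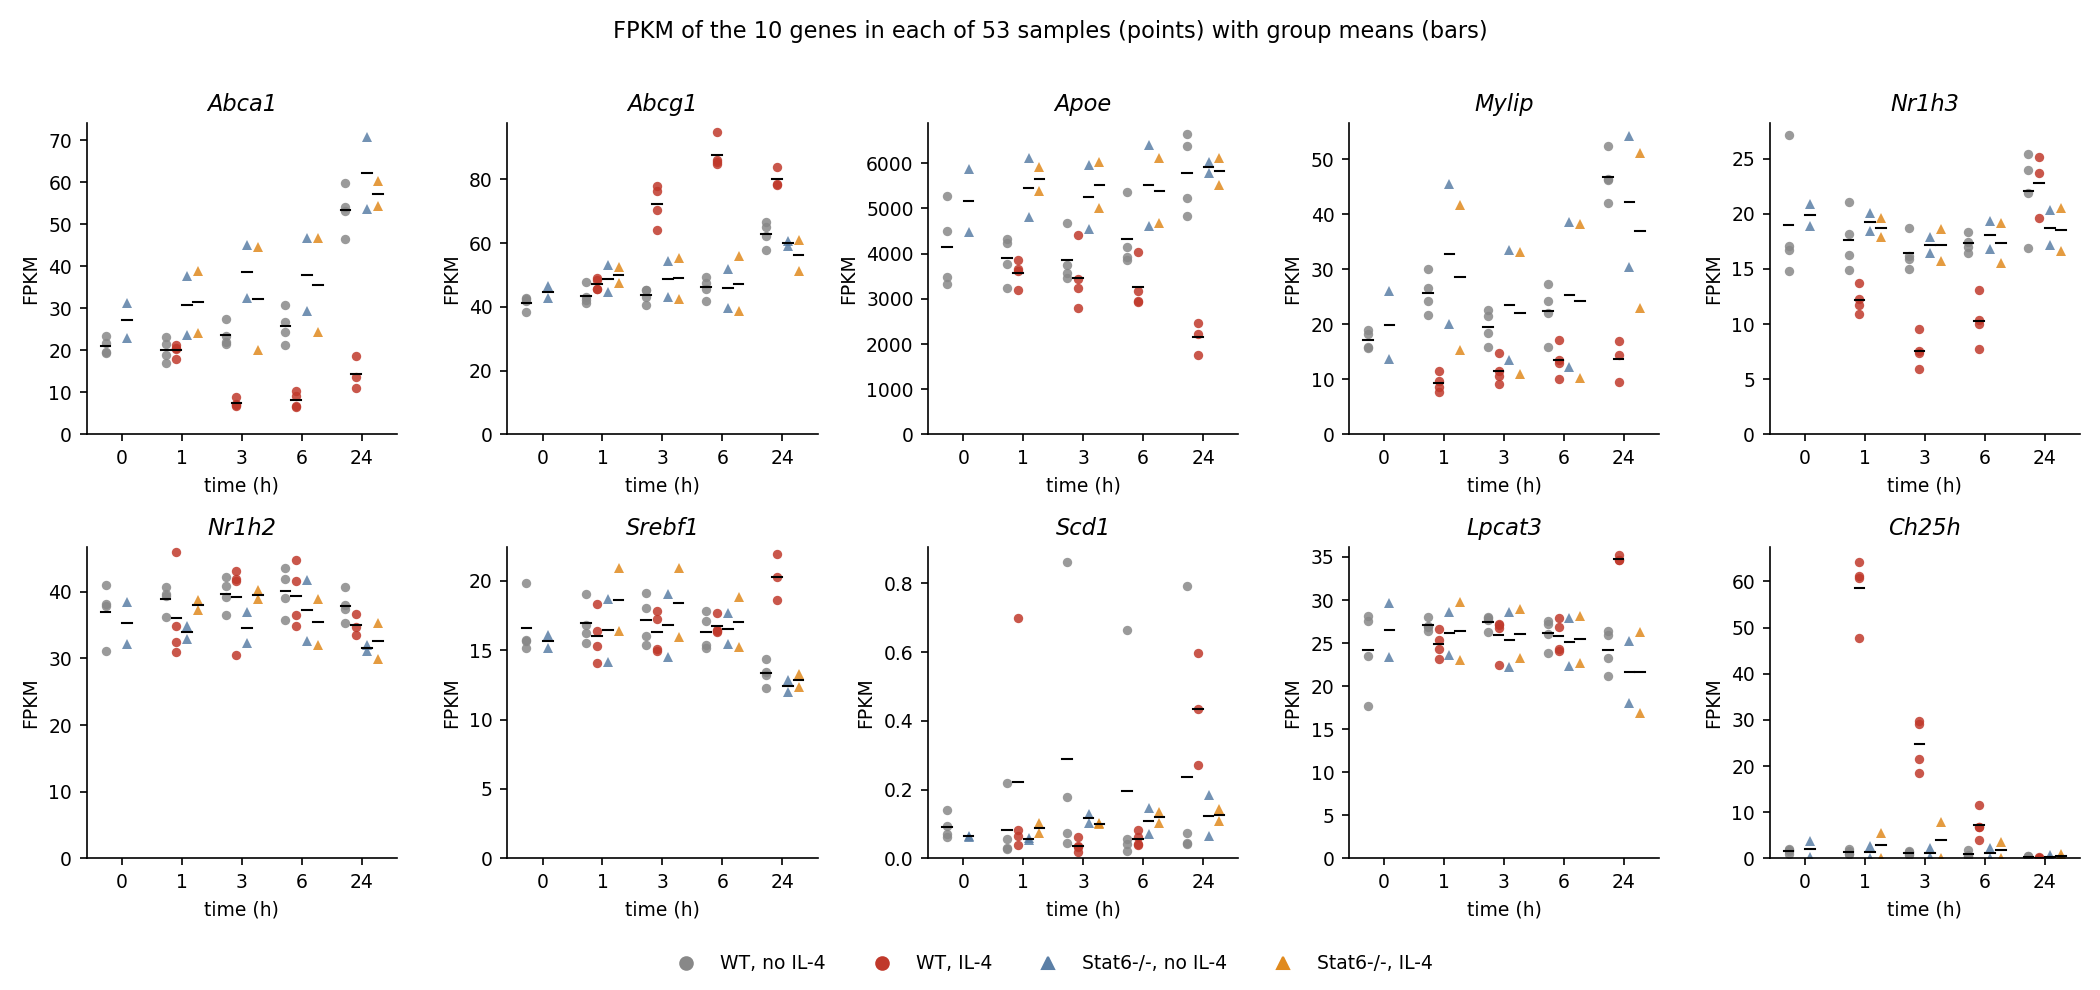
FPKM (linear axis from 0) of each of the 10 genes against time in hours, with 1 point per sample and a bar at each group mean; circles are WT, triangles Stat6-/-, and red and orange mark IL-4. In WT with IL-4, Ch25h reached 47.8 to 64.2 FPKM at 1 h, and Abca1 lay below every control of its time from 3 h on while Abcg1 lay above.

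Ch25h (19:34473784-34475135, minus strand) showed the largest response of the 10. Its WT controls at 1 h had 1.52, 1.95, 1.03 and 0.891 FPKM, and the samples with IL-4 had 60.9, 61.2, 64.2 and 47.8 FPKM. Every treated sample was far above every control, and the means stood 43.4-fold apart (log2 difference 4.68, SE 0.50, adjusted p = 2.6e-09). At 3 h the controls had 1.28, 1.59, 1.02 and 0.694 FPKM and the treated samples 29.0, 29.7, 21.6 and 18.5 FPKM. The groups again did not overlap, with a log2 difference of 3.58, SE 0.50, adjusted p = 3.3e-07. At 6 h the treated samples had 6.75, 11.5, 6.85 and 3.90 FPKM against controls of 0.825, 1.84, 0.472 and 0.369 FPKM, a log2 difference of 2.12, SE 0.50, adjusted p = 0.000738. The treated level thus came down at each later time while still clear of the controls. At 24 h the treated samples had 0.320, 0.0887 and 0.0693 FPKM and the controls 0.410, 0.404, 0.0939 and 0.175 FPKM. These overlapped (log2 difference -0.13, SE 0.55, adjusted p = 0.860), and both groups were under 1 FPKM. Ch25h shares 11.5% of its exon bases with Gm26902 on the other strand, and the library kit does not mark strand, so reads of the 2 cannot be told apart there.

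Of the receptors, Nr1h3 (2:91184061-91195116, minus strand) fell for a time and Nr1h2 did not pass the test. At 3 h Nr1h3 was at 18.7, 15.0, 15.9 and 16.1 FPKM in controls and 9.55, 5.89, 7.37 and 7.55 FPKM with IL-4. No treated sample reached a control, and the log2 difference was -1.03, SE 0.14, adjusted p = 2.04e-07. The fall was already there at 1 h (12.2 ± 1.17 FPKM with IL-4 against 17.6 ± 2.65 FPKM, SD, n = 4 each), where it passed the test but was under 2-fold (-0.49, SE 0.14, adjusted p = 0.0178). At 6 h it was 10.3 ± 2.17 against 17.3 ± 0.801 FPKM (SD, n = 4 each), a log2 difference of -0.72, SE 0.14, adjusted p = 7.92e-05. At 24 h the treated samples had 19.6, 25.2 and 23.7 FPKM, within the controls' 25.4, 16.9, 24.0 and 21.9 FPKM (0.06, SE 0.15, adjusted p = 0.775). The 3 h difference was close to the 2-fold limit, and it fell under it, to as little as -0.93, when WT replicate 2 with IL-4 or WT replicate 1 of the controls at 3 h was left out, with adjusted p of 0.000174 or lower.

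Nr1h2 (7:44549633-44553923, minus strand) lay between 30.0 and 45.9 FPKM over all 53 samples. Its log2 differences in WT ran from -0.12 at 1 h to -0.03 at 3 h, with SEs of 0.10 to 0.11, and the adjusted p was 0.420 or higher. Nr1h2 was the more abundant receptor in every group mean. The ratio of Nr1h3 to Nr1h2 within a sample was 0.414 ± 0.0434 in WT controls at 3 h and 0.193 ± 0.0243 with IL-4 (SD, n = 4 each), and the samples ranged from 0.376 to 0.476 and from 0.175 to 0.228. The ratio at 24 h was 0.579 ± 0.0731 (SD, n = 4) without and 0.652 ± 0.0693 (SD, n = 3) with IL-4, and the samples overlapped.

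Abca1 (4:53030789-53159895, minus strand), the transporter that loads cholesterol onto lipid-poor apolipoprotein, did not pass the test at 1 h and was low from 3 h on. At 1 h the controls had 18.9, 17.1, 21.4 and 23.1 FPKM and the treated samples 20.4, 21.3, 17.9 and 20.4 FPKM, which overlapped (log2 difference -0.003, SE 0.20, adjusted p = 0.999). At 3 h the controls had 23.5, 22.0, 21.4 and 27.4 FPKM and the treated samples 7.03, 6.68, 7.32 and 8.94 FPKM. The 2 groups were wide apart, with treated samples at 31.8% of the control mean (log2 difference -1.53, SE 0.20, adjusted p = 7.54e-08). At 6 h the values were 30.9, 21.3, 24.3 and 26.8 FPKM in controls and 9.13, 6.84, 6.46 and 10.4 FPKM with IL-4 (log2 difference -1.55, SE 0.20, adjusted p = 4.46e-08). At 24 h the controls had risen to 53.1, 59.7, 46.5 and 54.0 FPKM and the treated samples had 11.1, 13.7 and 18.6 FPKM. This was the largest difference for Abca1, -1.84, SE 0.22, adjusted p = 5.43e-09, and it was made up of a control that rose with time as well as a treated level below that of 0 h (21.1 ± 1.97 FPKM, SD, n = 4).

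Abcg1 (17:31057694-31117981, plus strand), which passes cholesterol on to more mature particles, went the other way. At 6 h its controls had 47.6, 41.9, 45.6 and 49.5 FPKM and the treated samples 84.8, 85.4, 86.1 and 94.8 FPKM. All treated samples were above all controls, with means 1.90-fold apart and a log2 difference of 0.91, SE 0.09, adjusted p = 1.43e-10. At 3 h the means were 43.6 ± 2.25 and 72.2 ± 6.24 FPKM (SD, n = 4 each), a log2 difference of 0.71, SE 0.09, adjusted p = 5.84e-08. At 24 h the treated samples had 78.4, 78.2 and 83.9 FPKM and the controls 66.6, 57.8, 62.3 and 65.0 FPKM (0.35, SE 0.10, adjusted p = 0.00368). Abcg1 therefore passed the test at 3, 6 and 24 h and never reached 2-fold, and at 1 h it did not pass (0.11, SE 0.09, adjusted p = 0.566).

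The opposite movement of the 2 transporters shows in their ratio, which compares levels per length within each sample. In WT controls Abca1 over Abcg1 was 0.541 ± 0.0468 at 3 h and 0.558 ± 0.0625 at 6 h (SD, n = 4 each). With IL-4 it was 0.104 ± 0.0109 and 0.0931 ± 0.018 (SD, n = 4 each), and the highest treated sample at either time (0.117) was below the lowest control (0.498). The 24 h controls were at 0.852 ± 0.125 (SD, n = 4) and the treated samples at 0.180 ± 0.0403 (SD, n = 3). The ratios are given as a description, without a test.

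**Figure D2:**
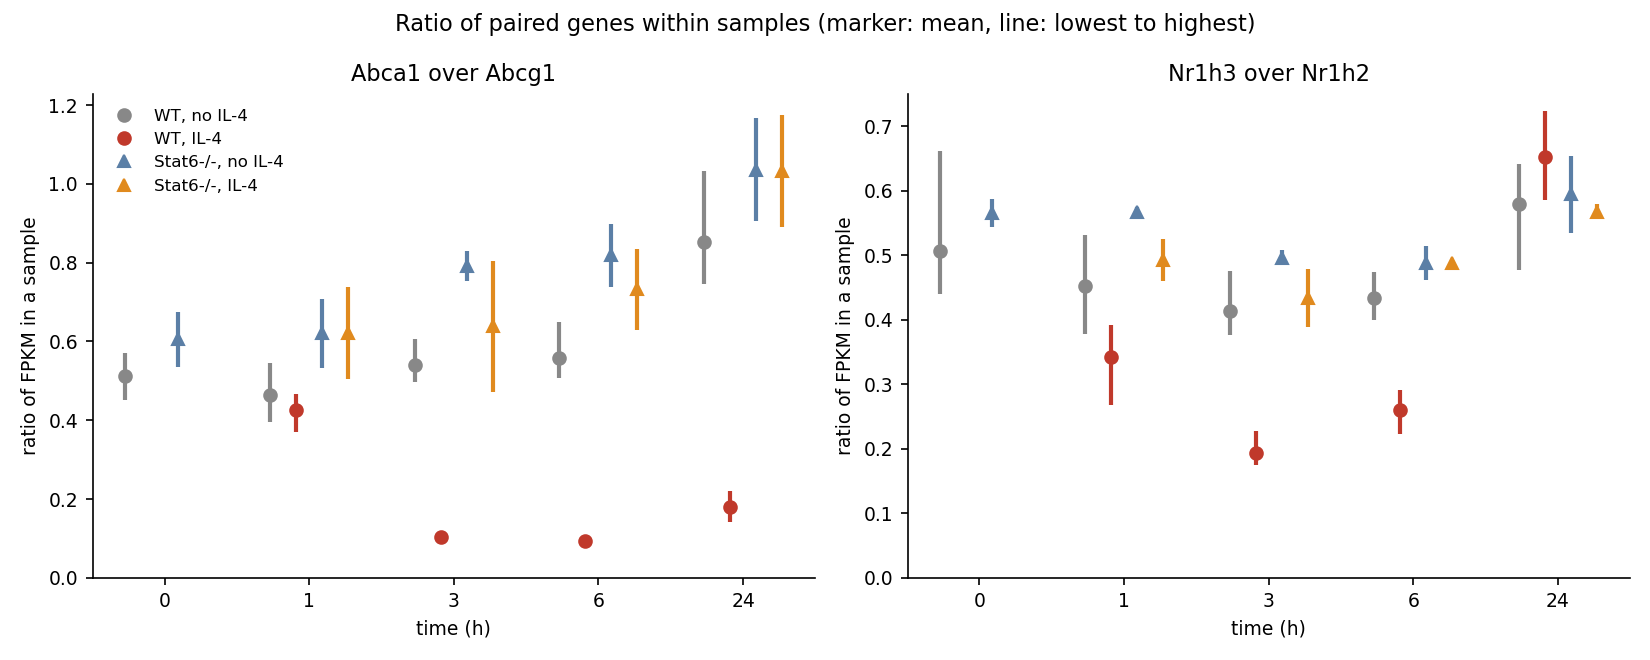
Ratio of FPKM within a sample (linear axis from 0) of Abca1 to Abcg1 and of Nr1h3 to Nr1h2 against time in hours; markers are group means and lines run from the lowest to the highest sample. In WT with IL-4 the Abca1 to Abcg1 ratio was 0.104 at 3 h and 0.180 at 24 h, below every group without IL-4 and every Stat6-/- group, and the Nr1h3 to Nr1h2 ratio was lowest at 3 h (0.193).

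Apoe (7:19696244-19699166, minus strand) was by far the most abundant of the 10, between the 4th and the 21st locus of each sample and 0.409% to 1.56% of its FPKM sum. At 24 h the controls had 6643, 4839, 5239.9 and 6388 FPKM and the samples with IL-4 1752, 2233 and 2474 FPKM. The treated samples were all below the lowest control, at 37.3% of the control mean (log2 difference -1.43, SE 0.18, adjusted p = 1.68e-08). At 6 h the treated samples had 3176, 2933, 2943 and 4039 FPKM and the controls 3856, 3929.6, 4141 and 5360.1 FPKM. These overlapped, and the log2 difference of -0.40, SE 0.16, adjusted p = 0.0487 passed the test narrowly. At 1 h and 3 h the log2 differences were -0.11 (adjusted p = 0.792) and -0.16 (adjusted p = 0.533).

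Mylip (13:45389742-45411940, plus strand), which encodes that ubiquitin ligase, was called lower already at 1 h. At 1 h the controls had 24.3, 21.7, 26.6 and 30.1 FPKM and the treated samples 8.63, 7.66, 9.69 and 11.5 FPKM. No treated sample came near a control, and the means stood 2.74-fold apart (log2 difference -1.37, SE 0.35, adjusted p = 0.00675). Mylip values at 24 h were 46.2, 42.0, 46.4 and 52.3 FPKM in controls and 9.50, 14.5 and 17.1 FPKM with IL-4, a log2 difference of -1.73, SE 0.38, adjusted p = 0.000235. At 3 h the groups did not overlap either (19.6 ± 3.02 against 11.5 ± 2.43 FPKM, SD, n = 4 each), but the log2 difference of -0.72, SE 0.35, adjusted p = 0.131 did not pass. At 6 h the groups overlapped (-0.69, SE 0.35, adjusted p = 0.119). The treated means were 9.37, 11.5, 13.5 and 13.7 FPKM at 1, 3, 6 and 24 h. The control means were 25.7, 19.6, 22.4 and 46.7 FPKM at these times and 17.2 FPKM at 0 h. The SE of Mylip, 0.35 for a WT difference, was large beside that of Abca1 (0.20), and the spread between the 2 Stat6-/- samples, which enters the shared estimate, was wide for this gene. The 1 h call was lost with Tukey's test and when all samples of any 1 of the 4 WT replicate numbers were left out (adjusted p up to 0.0816), while the log2 difference stayed between -1.46 and -1.28.

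Of the lipid synthesis genes, Srebf1 and Lpcat3 passed the test at 24 h only. Srebf1 (11:60199089-60220604, minus strand), which encodes the transcription factor SREBP-1, had controls of 14.4, 12.3, 13.4 and 13.2 FPKM and treated samples of 21.9, 18.6 and 20.3 FPKM at 24 h. All treated samples were higher, 1.52-fold on average (log2 difference 0.57, SE 0.11, adjusted p = 3.35e-05), and the tables give 1 value for the gene, so its SREBP-1a and SREBP-1c forms cannot be told apart. Lpcat3 (6:124663104-124704716, plus strand), which builds polyunsaturated chains into phospholipids, had 23.3, 21.2, 26.4 and 25.9 FPKM in controls and 35.2, 34.6 and 34.6 FPKM with IL-4. These treated samples were the highest of all 53 for Lpcat3 and lay close together (log2 difference 0.51, SE 0.13, adjusted p = 0.00143). Lpcat3 shares 10.2% of its exon bases with Emg1 on the other strand. From 1 to 6 h the log2 differences of the pair lay between -0.12 and 0.03 and none passed the test.

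Scd1 (19:44394450-44407709, minus strand), the main fatty acid desaturase of liver and fat, was barely present. It lay between 0.0172 and 0.864 FPKM over the 53 samples, and its highest value came from a WT control at 3 h. The WT treated samples at 24 h had 0.597, 0.272 and 0.435 FPKM and the controls 0.0433, 0.0406, 0.792 and 0.0729 FPKM, which overlapped.

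Counted over the 9 tested genes, IL-4 in WT gave 1 call higher (Ch25h) and 1 lower (Mylip) at 1 h, where 1.09% of all loci were called higher and 0.395% lower. At 3 h 1 was called higher (Ch25h) and 2 lower (Abca1 and Nr1h3), against 2.61% and 1.27% of all loci. At 6 h 1 was higher (Ch25h) and 1 lower (Abca1), against 3.18% and 2.36%. At 24 h none was called higher and 3 were lower (Abca1, Apoe and Mylip), against 3.91% and 4.58%. By the adjusted p alone, 3, 4, 5 and 6 of the 9 passed at 1, 3, 6 and 24 h, beside 9.39%, 28.9%, 41.2% and 55% of all loci. The median log2 difference of the 9 was -0.11, -0.09, -0.03 and -0.11, and that of all loci was -0.02, 0.01, -0.00022 and -0.07. The summed neutrophil markers were also lower with IL-4 in WT at 24 h, at 98.4 to 135 FPKM against 215 to 294 FPKM in controls, and the summed macrophage markers were at 2806 to 2874 FPKM against 3398 to 3864 FPKM. Their part in the 24 h results was not tested. The 9 genes are few, and they were proposed with results of these data known, so these shares say nothing particular about the list.

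Whether a response was early or late was tested as the change of the WT log2 difference between neighbouring times. From 1 h to 3 h 1 of the 9 was called, Abca1 (-1.53, SE 0.28, adjusted p = 0.000174), against 1.61% of all loci, and Abcg1 passed the test with 0.60, SE 0.13, adjusted p = 0.00124 (11.1% of loci passed). From 3 h to 6 h no gene was called or passed, against 0.449% and 3.31% of loci. With only the samples compared, the fall of the Ch25h response was called over both intervals (-1.10, adjusted p = 0.00506, and -1.46, adjusted p = 0.0266). From 6 h to 24 h 2 were called, against 6.06% of loci: the response of Ch25h went down (-2.25, SE 0.74, adjusted p = 0.0204) and that of Apoe went further down (-1.03, SE 0.24, adjusted p = 0.00127). A further 4 genes passed the test over this interval, beside 27.8% of loci. The response of Abcg1 shrank (-0.57, adjusted p = 0.00142), that of Nr1h3 returned from its low (0.77, adjusted p = 0.00473), and those of Srebf1 (0.54, adjusted p = 0.00549) and Lpcat3 (0.53, adjusted p = 0.0247) appeared. Mylip had a log2 change of -1.04, SE 0.52, adjusted p = 0.136, and was called with a fit to only the samples compared (adjusted p = 0.00805) and with the replicate block. The Apoe change was at the 2-fold limit, and its call was lost under 10 of the alternatives run, with log2 changes from -1.20 to -0.88 over all of them. Those 10 include leaving out WT replicate 2 with IL-4 or control replicate 1 or 4 at 24 h, or replicate 4 with IL-4 or control replicate 1 or 2 at 6 h. The Ch25h call was lost with a pseudocount of 0.1 and without any 1 WT replicate number in all groups (adjusted p up to 0.143).

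**Figure D3:**
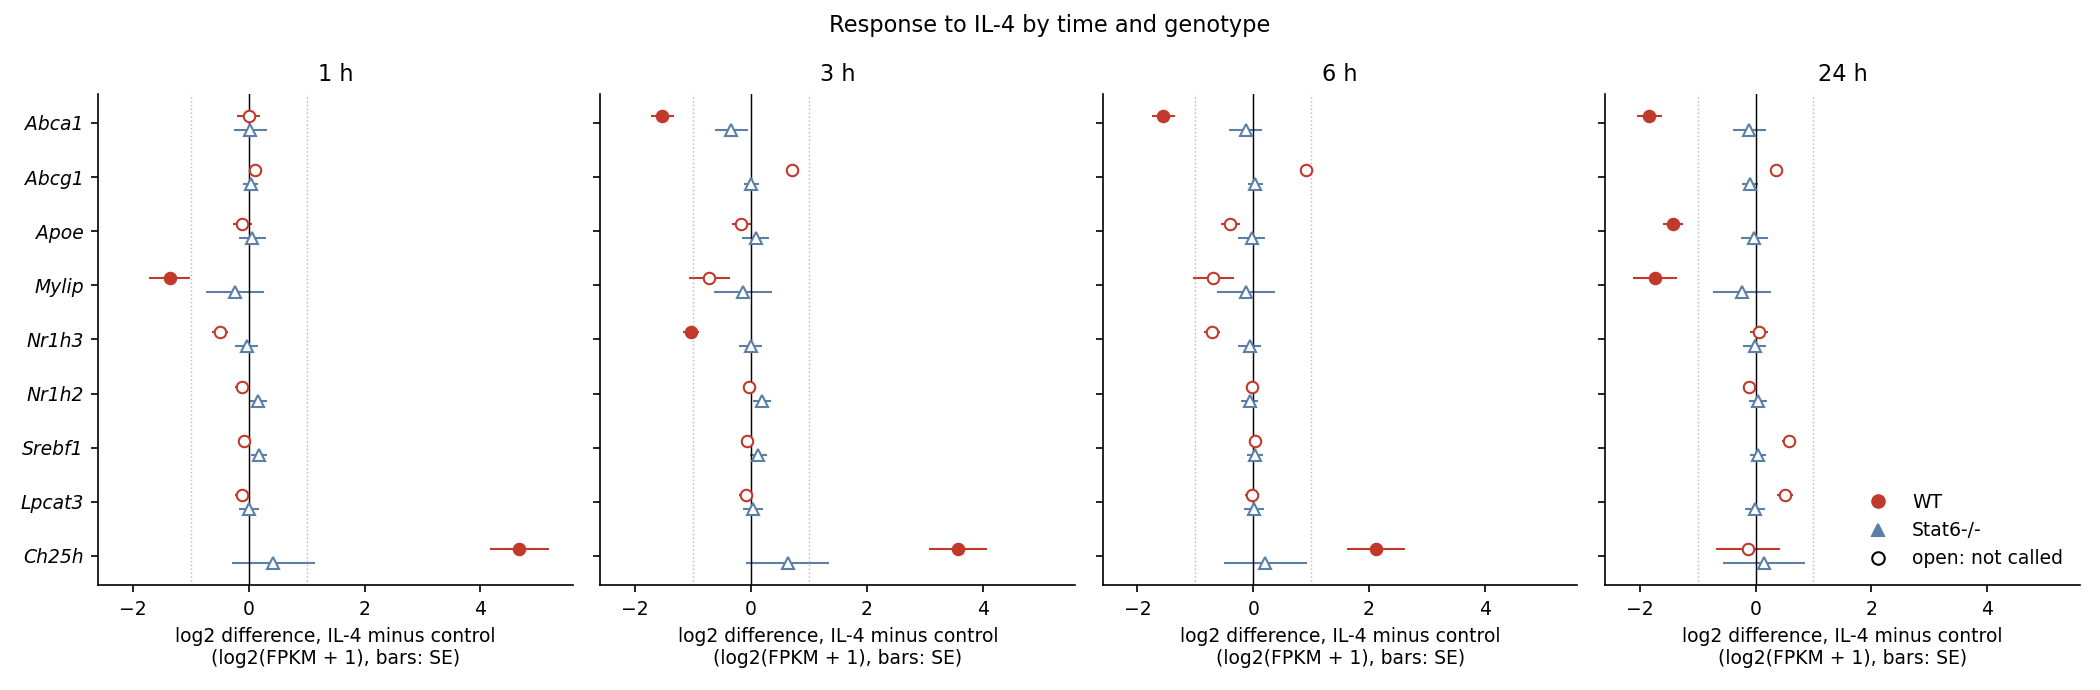
Log2 difference between IL-4 and control (log2(FPKM + 1), linear axis, bars are SE) of the 9 tested genes at 1, 3, 6 and 24 h in WT (circles) and Stat6-/- (triangles); filled symbols were called and dotted lines mark 2-fold. Ch25h went from 4.68 at 1 h to -0.13 at 24 h, Abca1 from -0.003 to -1.84, and no Stat6-/- symbol is filled.

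The next question was whether the changes needed STAT6. In Stat6-/- cells no gene of the 9 was called or passed the test at any time in the main limma fit. The share of all 11146 loci called was 0% at each of 1, 3, 6 and 24 h. Without adjustment (p under 0.05 and 2-fold), 7, 8, 2 and 0 loci of all tested stood out at the 4 times and none was one of the 9, and Tukey's test per gene called none of the 9 either. With 2 samples per group the SE of a Stat6-/- difference was 0.28 for Abca1 and 0.71 for Ch25h, so only large changes could have passed. The main fit used no pairing, so the gap between the 2 Stat6-/- replicates also entered these SEs.

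Abca1 in Stat6-/- at 3 h was at 45.0 and 32.4 FPKM in controls and 44.5 and 20.0 FPKM with IL-4 (replicates 1 and 2). The values of replicate 1 were nearly equal and that of replicate 2 was lower with IL-4, and the log2 difference was -0.34 with an SE of 0.28. At 24 h it was at 53.6 and 70.8 FPKM without and 54.4 and 60.2 FPKM with IL-4, all far above the WT treated samples of that time. Apoe at 24 h had 5790.1 and 6037 FPKM in Stat6-/- controls and 6119 and 5529.7 FPKM with IL-4, which overlapped (log2 difference -0.02, SE 0.23). Nr1h3 at 3 h had 17.9 and 16.4 FPKM without and 18.6 and 15.7 FPKM with IL-4, again overlapping. Abcg1 at 6 h had 51.8 and 39.7 FPKM and 55.9 and 38.6 FPKM, with a wider gap between the replicates than between the treatments.

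Ch25h in Stat6-/- differed sharply between the replicates. At 1 h the controls had 0.117 and 2.66 FPKM and the treated samples 0.129 and 5.55 FPKM. At 3 h they had 0.237 and 2.18 FPKM and 0.0711 and 7.83 FPKM. In replicate 2 the treated value was the higher one at each of the 4 times, and in replicate 1 all values stayed between 0 and 0.237 FPKM. Replicate 2 was above replicate 1 in all 9 Stat6-/- groups (0.783 to 7.83 FPKM), and even its highest value was under the lowest WT treated sample at 1 h and 3 h. Mylip and Lpcat3 ran the other way, with replicate 1 above replicate 2 in all 9 groups. Mylip was at 26.0 to 54.2 FPKM in replicate 1 and 10.2 to 30.3 FPKM in replicate 2, and Lpcat3 at 25.2 to 29.7 and 16.9 to 23.6 FPKM. Neutrophil markers summed to 302 to 553 FPKM in replicate 1 and 281 to 355 FPKM in replicate 2, and their part in these differences was not tested.

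**Figure D4:**
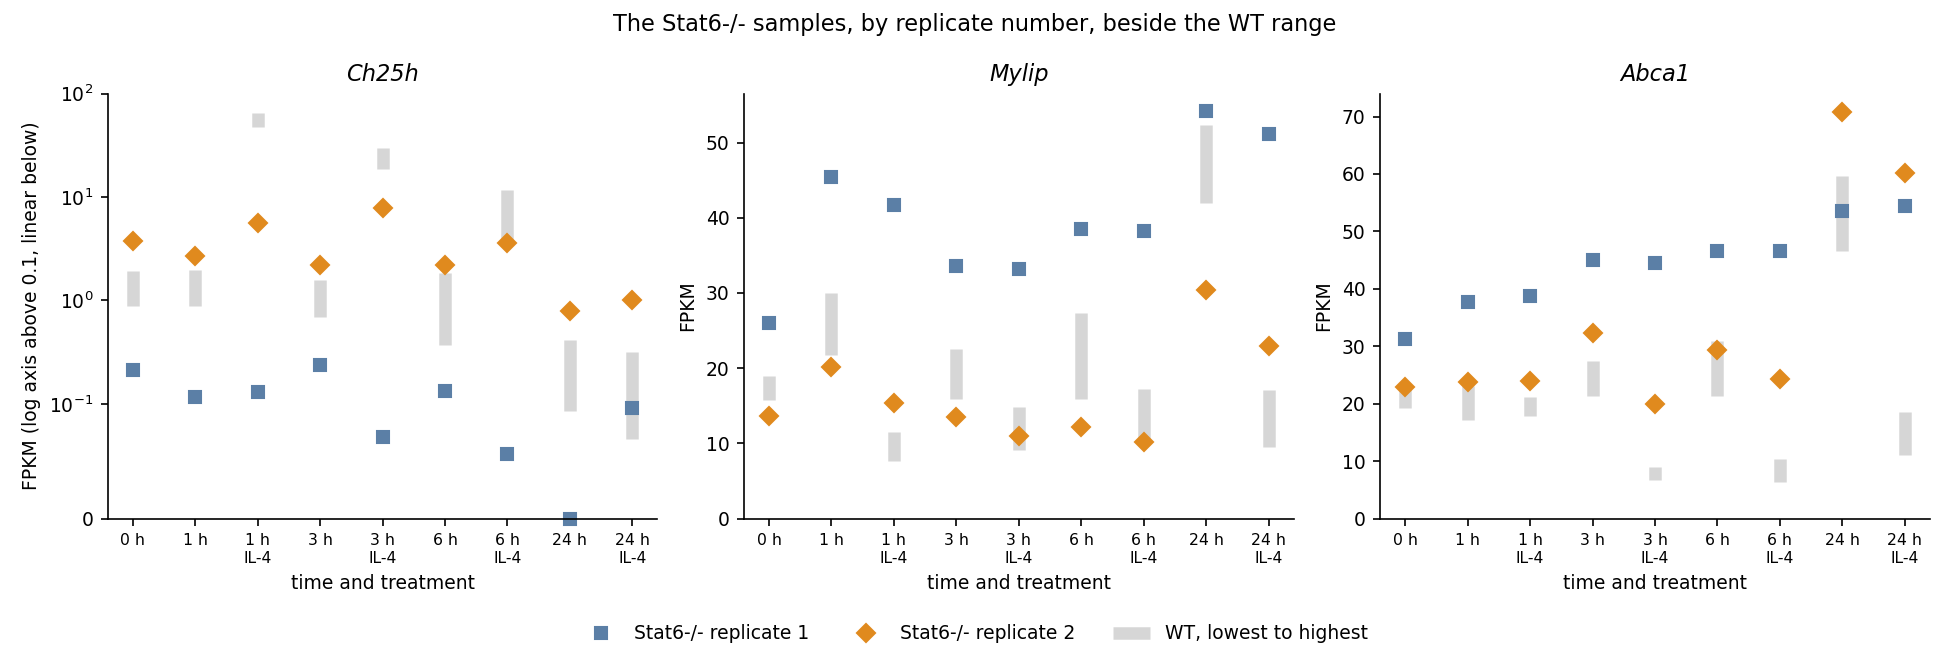
FPKM of Ch25h (log axis above 0.1, linear below), Mylip and Abca1 (linear axes from 0) in the Stat6-/- samples by time and treatment; squares are replicate 1, diamonds replicate 2, and grey bars run from the lowest to the highest WT sample. Ch25h was higher in replicate 2 and Mylip in replicate 1 in 9 of 9 groups, and Abca1 in both replicates lay above the WT range with IL-4 at 3, 6 and 24 h.

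The difference between the genotypes was tested itself, as the WT response minus the Stat6-/- response. At 1 h it was called for 1 of the 9 genes, Ch25h (4.25, SE 0.87, adjusted p = 0.00142), against 1.25% of all loci called and 3.36% passing. At 3 h 3 were called, against 3.48% called and 11.2% passing: Abca1 (-1.19, SE 0.35, adjusted p = 0.0180), Nr1h3 (-1.03, SE 0.25, adjusted p = 0.00303) and Ch25h (2.94, SE 0.87, adjusted p = 0.0201), and Abcg1 passed with 0.71, SE 0.16, adjusted p = 0.00161. At 6 h Abca1 was called (-1.42, SE 0.35, adjusted p = 0.00291) and Abcg1 passed (0.88, SE 0.16, adjusted p = 7.53e-05), against 4.41% called and 16.5% passing. At 24 h Abca1 (-1.73, SE 0.36, adjusted p = 0.000325) and Apoe (-1.40, SE 0.29, adjusted p = 0.00037) were called, against 6.85% called and 27% passing, and Abcg1 (0.44, adjusted p = 0.0422) and Srebf1 (0.52, adjusted p = 0.0262) passed. For Mylip the difference did not pass at any time, with -1.12, SE 0.61, adjusted p = 0.603 at 1 h and -1.49, SE 0.63, adjusted p = 0.0739 at 24 h. This depended on the samples and the fit used. At 24 h Mylip was called without Stat6-/- replicate 2 with IL-4 (-2.06, adjusted p = 0.0437), and without Stat6-/- replicate 1 (-1.34, adjusted p = 0.00940) or replicate 2 (-1.65, adjusted p = 0.00148) in every group, and a fit with the replicate number as a block called it at 1 h and at 24 h. In Stat6-/- itself Mylip was lower with IL-4 in each of the 8 pairs of same-numbered samples, with log2 differences of -0.24, -0.15, -0.12 and -0.24 at the 4 times that did not pass. For Lpcat3 at 24 h it was 0.52, SE 0.22, adjusted p = 0.0718, and for Ch25h at 6 h 1.91, SE 0.87, adjusted p = 0.143. The Ch25h difference at 6 h was called without Stat6-/- replicate 2 with IL-4 at 6 h (2.97, adjusted p = 0.0312), without either Stat6-/- replicate number in every group and with the replicate block.

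The calls at 24 h, for Abca1 and Apoe, held in every alternative run. Each of the others was lost without some single Stat6-/- sample, and several under other alternatives too. All 7 calls of a genotype difference stayed with the replicate number as a block. Leaving out 1 of the 2 Stat6-/- samples of a group sets unlike replicates against each other. For Abca1 at 3 h without replicate 1 with IL-4, 20.0 FPKM stood against controls of 45.0 and 32.4 FPKM. Without Stat6-/- replicate 1 with IL-4 at 3 h, or without Stat6-/- control replicate 2 at 3 h, none of the 3 h calls was left, and the difference of Abca1 at 3 h lay between -1.75 and -0.64 over all alternatives. The Abca1 call at 3 h was also lost with a fit to only the samples compared, and without WT replicate 1, 2 or 3 or Stat6-/- replicate 1 in every group. The Nr1h3 call was also lost without WT replicate 2 with IL-4 or WT control replicate 1 at 3 h, and without WT replicate 2 or Stat6-/- replicate 1 in every group. The Ch25h call at 3 h was also lost with a pseudocount of 0.1, with only the samples compared, and without any 1 WT replicate number in all groups. At 6 h the Abca1 call was lost without Stat6-/- replicate 1 with IL-4 or control replicate 2 (as little as -0.97, adjusted p up to 0.0892), and Abcg1 was then called in its place (1.14 and 1.07). Without Stat6-/- replicate 1 with IL-4 at 1 h, Ch25h at 1 h was not called, nor was it with a pseudocount of 0.1 (limma adjusted p up to 0.162).

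Levels without IL-4 were then compared between the genotypes. None of the 9 genes was called or passed by limma at 0, 1, 3, 6 or 24 h, where 0.35%, 0.26%, 0.126%, 0.0449% and 0.0269% of all loci were called. The widest differences from 0 to 6 h were those of Abca1, with log2 values (Stat6-/- minus WT) of 0.34, 0.56, 0.68, 0.52 and 0.21, SE 0.25 and adjusted p of 0.207 or higher. At 3 h the Stat6-/- controls had 45.0 and 32.4 FPKM for Abca1, both above the 4 WT controls, but they differed from each other by more than the 2 genotypes' closest samples did. Apoe ran from 0.05 to 0.49 (SE 0.20). The summed neutrophil markers also moved with genotype, at 281 to 553 FPKM in Stat6-/- and 98.4 to 294 FPKM in WT, and their part was not tested.

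Some of the genes also differed between control times, without IL-4. In WT controls no gene of the 9 was called at 1, 3 or 6 h against 0 h, where 0%, 0.00897% and 0.0179% of loci were called. Mylip controls at 1 h nevertheless all lay above those at 0 h (means 25.7 and 17.2 FPKM). That log2 difference of 0.55, SE 0.35, limma adjusted p = 0.643 did not pass. At 24 h 2 of the 9 were called higher, against 1.13% of loci called in either direction and 17.2% passing. Abca1 went from 19.7, 21.8, 19.3 and 23.5 FPKM at 0 h to 53.1, 59.7, 46.5 and 54.0 FPKM at 24 h (1.30, SE 0.20, adjusted p = 1.5e-05). Mylip went from 15.8, 15.7, 19.0 and 18.2 FPKM to 46.2, 42.0, 46.4 and 52.3 FPKM (1.39, SE 0.35, adjusted p = 0.00549). Every 24 h sample was above every 0 h sample for both genes. The Mylip call was lost without WT replicate 1, 3 or 4 in every group, with a log2 difference of 1.34 to 1.44. Abcg1 (0.59, adjusted p = 1.5e-05) and Apoe (0.49, adjusted p = 0.0352) were also higher by the test and Srebf1 lower (-0.29, adjusted p = 0.0403). In Stat6-/- controls, where 0.161% of loci were called, Abca1 was the 1 gene called, from 31.3 and 22.9 FPKM at 0 h to 53.6 and 70.8 FPKM at 24 h (1.17, SE 0.28, adjusted p = 0.0382). This call was lost without either 0 h sample or without replicate 2 at 24 h. Mylip in Stat6-/- had a log2 difference of 1.06, SE 0.50, adjusted p = 0.315, and was called without replicate 1 in every group (1.09, adjusted p = 0.0286) and with the replicate block. The 24 h comparison of IL-4 with control for these genes therefore set treated cells against controls that had themselves moved since 0 h.

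The order of the genes by level in WT controls at 0 h was Apoe, Abcg1, Nr1h2, Lpcat3, Abca1, Nr1h3, Mylip, Srebf1, Ch25h and Scd1. Apoe (4147 ± 920 FPKM, SD, n = 4) was far above Abcg1 (41.3 ± 2.05 FPKM), and the samples of Abcg1 and Nr1h2 overlapped, as did each neighbouring pair from Lpcat3 to Srebf1. In controls at 24 h Abca1 (53.3 ± 5.38 FPKM) and Mylip (46.7 ± 4.27 FPKM) stood above Nr1h2 (37.9 ± 2.24 FPKM). With 24 h of IL-4 the same 2 genes (14.5 ± 3.81 and 13.7 ± 3.84 FPKM, SD, n = 3) stood below Nr1h2, Lpcat3, Nr1h3 and Srebf1, and overlapped each other.

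A wider set of 41 genes of the pathway, in 4 lists taken from general knowledge of it, was counted beside the 10. Of these 35 were tested (Apoc4, Abcg4, Vldlr, Cyp7b1, Sult2b1 and Cyp46a1 did not reach 1 FPKM). In WT none was called at 1 h or 3 h, 1 was called higher and 2 lower at 6 h, and 4 were called higher and 6 lower at 24 h, where the shares of all loci are those given above. By the adjusted p alone 3, 14, 19 and 23 of the 35 passed, beside 9.39%, 28.9%, 41.2% and 55% of all loci. In Stat6-/- none of the 35 was called or passed at any time in the main fit. The 8 receptor partners and coregulators, among them the retinoid X receptors and the NCoR and NCoA proteins, had no call in either genotype. At 24 h in WT 6 of the 8 passed as lower, where 55% of all loci passed in either direction. The share of all loci passing as lower alone was not counted. The median log2 difference was -0.37 over the 8 and -0.07 over all loci.

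Among 15 other LXR targets tested, Apoc2, Cd5l, Pltp, Smpdl3a and Mertk were called lower at 24 h. Apoc2, a cofactor of lipoprotein lipase, was at 3.79 ± 0.251 FPKM (SD, n = 3) against 24.7 ± 6.29 FPKM (SD, n = 4) in controls at 24 h (log2 difference -2.39, SE 0.27, adjusted p = 2.47e-09). Cd5l, a secreted macrophage protein, had a log2 difference of -2.30, SE 0.20, adjusted p = 4.28e-12 at 24 h. Pltp, which transfers phospholipids between lipoproteins, had -1.47 (adjusted p = 6.26e-08), and Smpdl3a, a phosphodiesterase, -1.24 (adjusted p = 1.5e-08). Mertk, a receptor for the uptake of dead cells, was already called at 6 h (-1.28, adjusted p = 4.41e-10) and was at 6.41 ± 1.63 FPKM (SD, n = 3) against 26.0 ± 1.82 FPKM (SD, n = 4) at 24 h. In contrast, 3 fatty acid synthesis genes on the same list rose at 24 h. The desaturase Scd2 went from 5.83 ± 0.595 to 53.2 ± 19.8 FPKM (log2 difference 2.93, SE 0.26, adjusted p = 7.58e-12), Fads2 had 1.56 (adjusted p = 3.41e-11) and the fatty acid synthase gene Fasn 1.20 (adjusted p = 1.48e-11). The Fasn call was lost without WT replicate 2 with IL-4 at 24 h. Arl4c, a small GTPase, was called higher at 6 h (1.30, adjusted p = 2.07e-14) and had -0.17 at 24 h (adjusted p = 0.167). The median log2 difference of the 15 at 24 h was 0.16.

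Of the 10 tested genes of cholesterol uptake, storage and release, Lrp1, a lipoprotein receptor, was called lower at 6 h (-1.27, adjusted p = 2.32e-14). The sterol carrier Stard4 rose at 24 h (1.24, adjusted p = 1.18e-05). Of the 2 tested oxysterol enzymes, Cyp27a1, which makes 27-hydroxycholesterol, fell at 24 h (-1.40, adjusted p = 5.59e-05). In WT controls Stard4 and Fads2 were each called lower at 24 h than at 0 h, so these 2 rises too were read against controls that had moved. By the limma adjusted p alone, 4 of the 15 other LXR targets passed as higher in these controls and 4 as lower. Of the 10 genes of cholesterol uptake, storage and release, 3 passed as lower, where 17.2% of all loci passed in either direction. Other 24 h differences of these lists were thus also set against controls that had moved.

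**Figure D5:**
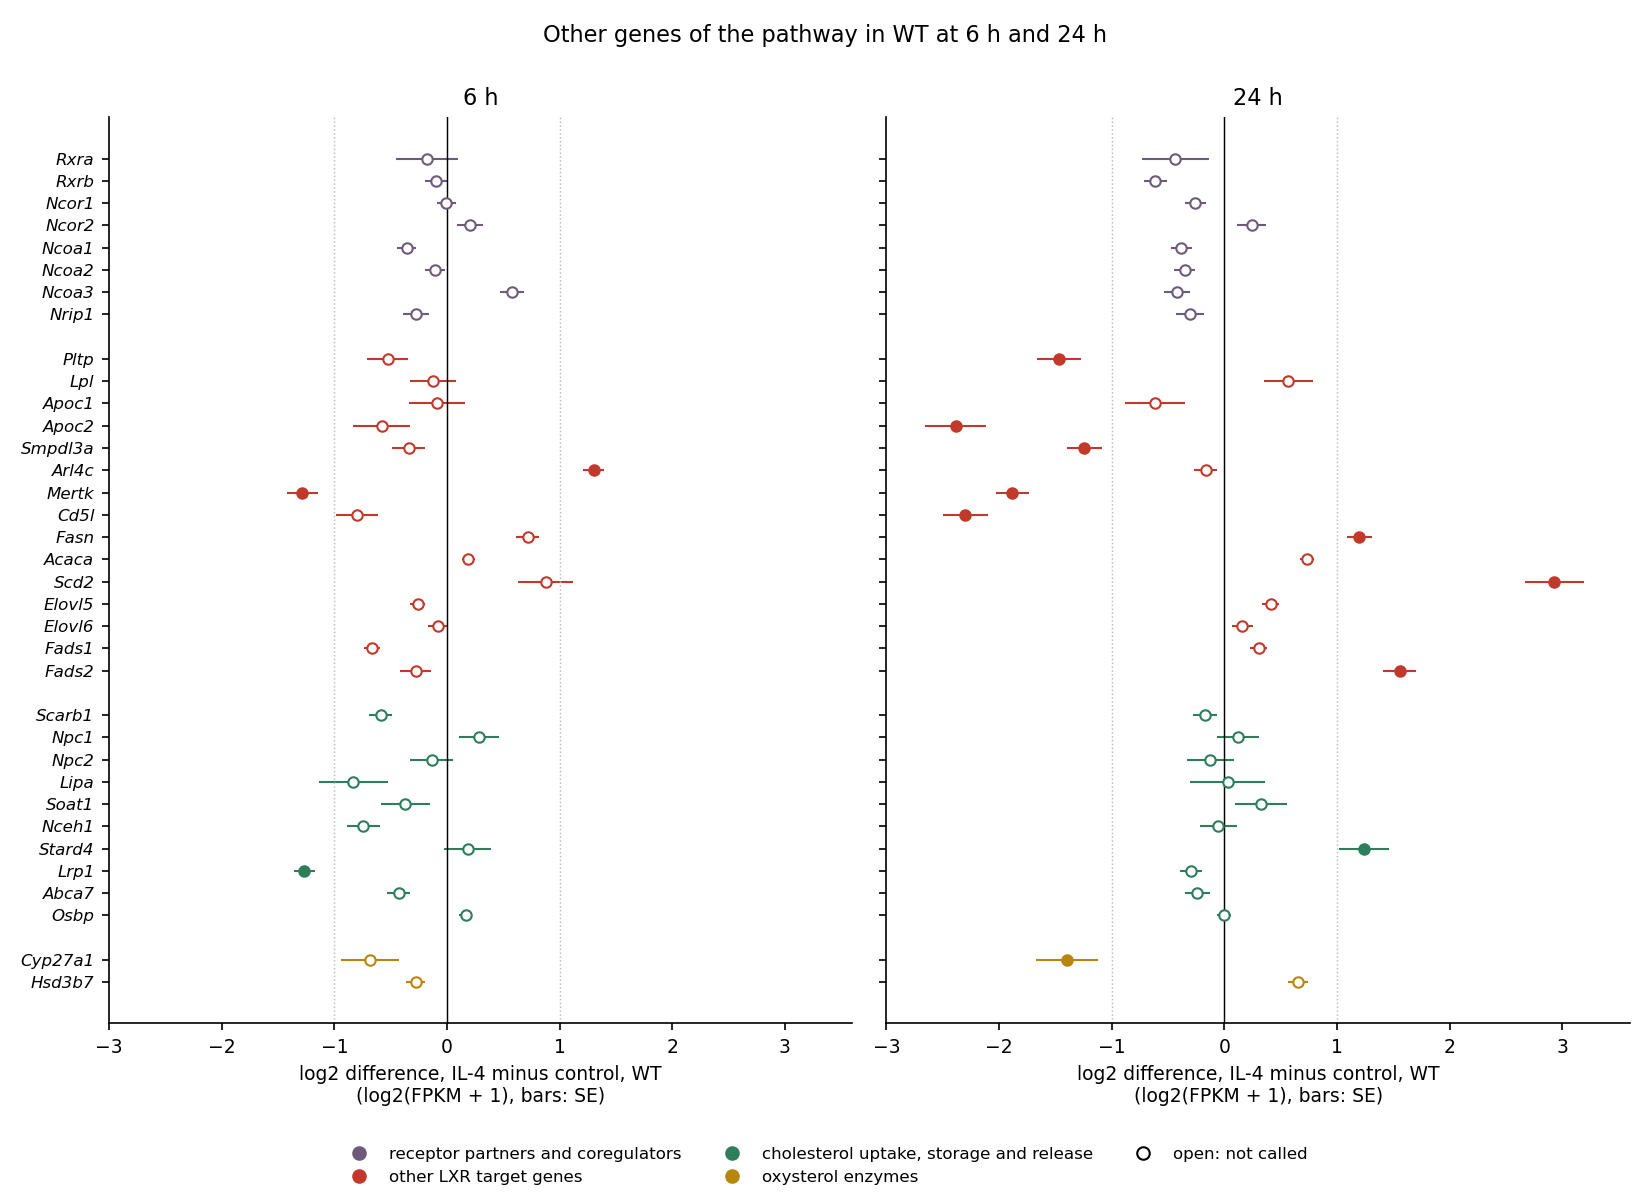
Log2 difference between IL-4 and control in WT (log2(FPKM + 1), linear axis, bars are SE) of the 35 other tested genes of the pathway at 6 h and 24 h, coloured by list; filled symbols were called and dotted lines mark 2-fold. At 24 h Apoc2, Cd5l, Mertk, Pltp, Smpdl3a and Cyp27a1 lay to the left and Scd2, Fads2, Stard4 and Fasn to the right.

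The loci whose pattern over the 18 group means of log2(FPKM + 1) was most like that of a called gene were found by Pearson correlation, as a description. For Abca1 they were H6pd (r = 0.976) and Zswim6 (r = 0.972). For Apoe they were Cd5l (r = 0.991) and Nadk (r = 0.981), for Ch25h Id1 (r = 0.977) and Zfp459 (r = 0.968), for Nr1h3 Dtx4 (r = 0.964) and Xpot (r = 0.946), and for Mylip Arhgap19 (r = 0.923) and Map1lc3b (r = 0.895). Among the 9 genes themselves Abca1 was closest to Mylip (r = 0.812) and Apoe (r = 0.807), Srebf1 to Lpcat3 (r = 0.830), and Ch25h ran against Nr1h3 (r = -0.839). The group means share the IL-4 time course and the samples behind it, so the 18 points are not independent.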

How the data were processed

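Poly(A) RNA of BMDMs was sequenced from TruSeq libraries, a kit that does not mark strand. The authors aligned reads to the mouse genome and estimated FPKM, and the submitters' processing notes name TopHat2 2.0.7, Cufflinks 2.0.2 and mm10. The gene annotation is not given in the sources used here. The deposited values are 1 FPKM per locus and sample in a table for each sample, with no counts, so no count test was run. The per-sample tables held 23847 loci, of which 740 share a symbol with another locus, and each of the 10 symbols was unique. Values under 1e-06 FPKM were set to 0 (4316 values). No 2 samples held identical values.

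Values were transformed to log2(FPKM + 1), loci reaching 1 FPKM in at least 1 sample were kept (11146), and all 53 samples in 18 groups were fitted together with limma 3.58.1 in R 4.3.3 (35 residual degrees of freedom), with moderated two-sided tests and Benjamini-Hochberg adjustment over all loci kept in each comparison. Calls needed an adjusted p under 0.05 and a 2-fold difference. The fit was tested on simulated data. Tables were handled in Python 3.11.15 with pandas 2.3.3 and numpy 2.4.6. Low values step by what 1 fragment is worth, which gave relative but not absolute depth. Precision was therefore judged from the spread between samples. The rule for genes to name took all 10 genes, Stat6, Arg1 and Retnla as checks, any gene of the wider pathway lists called in WT at any time, and the 2 loci most alike over the group means. The 10 genes and all lists were chosen with earlier results of these data known. Alternatives were a pseudocount of 0.1, no filter, quantile and median-ratio scaling, fits to only the samples compared, a replicate block, Tukey's test per gene and leaving out samples. Leaving out a replicate number from every group was chosen after seeing the data. Some genes of the wider lists are not reported here.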

Additional observations from a re-analysis of the deposited data

Results flagged for a closer look

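Dixon's test at the 95% level was applied to the 80 sets of 4 WT samples for the 10 genes, and 10 sets held a sample far from the other 3, where chance gives about 1 in 20, or 4. Scd1 accounted for 5 of them, all with values under 1 FPKM. Its high samples were WT with 1 h of IL-4 replicate 4 (0.699 FPKM, others 0.0378 to 0.0812), WT control replicate 4 at 1 h (0.220 FPKM, others 0.0278 to 0.0550), WT control replicate 4 at 3 h (0.864 FPKM, others 0.0453 to 0.178), WT control replicate 3 at 6 h (0.663 FPKM, others 0.0212 to 0.0570) and WT control replicate 3 at 24 h (0.792 FPKM, others 0.0406 to 0.0729). Srebf1 was high in WT control replicate 1 at 0 h (19.8 FPKM, others 15.2 to 15.8) and in WT replicate 3 with 6 h of IL-4 (17.6 FPKM, others 16.3 to 16.5). Abcg1 was high in WT replicate 4 with 6 h of IL-4 (94.8 FPKM, others 84.8 to 86.1). In WT replicate 2 with 3 h of IL-4 both Nr1h2 (30.5 FPKM, others 41.7 to 43.1) and Lpcat3 (22.5 FPKM, others 26.8 to 27.3) were low.

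The response to IL-4 differed between the genotypes by limma's interaction test in 7 of 36 tests of the 9 genes, in 4 genes. On the log2 scale, WT minus Stat6-/-, the differences were 4.25 for Ch25h at 1 h and 2.94 at 3 h, -1.03 for Nr1h3 at 3 h, -1.19, -1.42 and -1.73 for Abca1 at 3, 6 and 24 h, and -1.40 for Apoe at 24 h.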

How the results depend on the processing

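Over 225 pairs of gene and comparison, no difference changed sign among called values, and 12 of the 23 called pairs stayed called in every alternative, among them Abca1 in WT at 3, 6 and 24 h, Ch25h at 1, 3 and 6 h, and Apoe and Mylip at 24 h. Counts of called genes among the 9 moved as follows, and the cause was not tested. IL-4 in WT at 1 h gave 1 in place of 2 with Tukey's test and 1 to 2 over the leave-outs, and at 3 h 2 to 3 over the leave-outs. The genotype difference at 1 h gave 0 in place of 1 with a pseudocount of 0.1, 2 with the replicate block, and 0 to 1 over the leave-outs. At 3 h it gave 1 in place of 3 with only the samples compared, 2 with a pseudocount of 0.1 and 0 to 3 over the leave-outs, and at 6 h 2 in place of 1 with the replicate block and 1 to 2 over the leave-outs. At 24 h it gave 3 in place of 2 with the replicate block and 2 to 3 over the leave-outs. The gene gained by the block was Mylip at 1 h (-1.12, adjusted p = 1.07e-05) and at 24 h (-1.51, adjusted p = 1.51e-08) and Ch25h at 6 h. For 24 h against 0 h, WT controls gave 1 to 2 over the leave-outs, and Stat6-/- controls gave 0 in place of 1 with only the samples compared, 2 with the replicate block and 0 to 3 over the leave-outs. The change of response from 1 h to 3 h gave 2 in place of 1, and that from 3 h to 6 h 1 in place of 0, both with only the samples compared and with the replicate block. From 6 h to 24 h it gave 1 in place of 2 with a pseudocount of 0.1, without the filter and with median-ratio scaling, 3 with only the samples compared and with the replicate block (both gained Mylip), and 0 to 2 over the leave-outs. The wider pathway genes in WT at 3 h gave 1 in place of 0 with quantile normalization and 0 to 1 over the leave-outs. At 24 h Fasn was lost without WT replicate 2 with IL-4 and without WT replicate 2 in every group. A pseudocount of 0.1 added calls among these genes at 24 h.

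Same-numbered samples deviated together with r from 0.0265 to 0.561 over the WT pairs and from 0.791 to 0.900 in Stat6-/-. The labels do not say what a number marks and not every WT pair passed 0.1, so the main fit used no pairing. This held although every Stat6-/- pair was at 0.791 or higher. In Stat6-/- the main fit therefore counted the gap between the replicates as spread, also where both treatments shared it. Where the 2 replicates stood apart, a Stat6-/- response or genotype difference that did not pass in that fit does not show that there was none. For the genotype difference of Mylip at 24 h, limma gave an adjusted p of 0.0739 without and 1.51e-08 with the block. The values of the block fit are given in this section only. Stat6-/- groups of 2 samples and the unknown absolute depth limit how small a difference could be seen.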
